A study of Mus musculus with 4 samples.

Results

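The GABAergic interneuron marker genes Gad1, Gad2, Slc32a1, Sst, Pvalb, Vip, Npy, Cck, Lhx6 and Reln are 10 of the 28193 genes in the deposited fosTRAP-seq table, matched by gene symbol, and all 10 passed the filter on low counts. fosTRAP-seq sequences RNA bound to tagged ribosomes of cells that expressed Fos while a drug allowed tagging. Adult male C57BL/6J mice aged 3 to 5 months carried one viral vector with a tamoxifen-dependent Cre recombinase under the Fos promoter, and another in which Cre switches on an HA-tagged ribosomal protein, Rpl22, under the general EF1a promoter. Neither vector restricts tagging to a type of neuron, so an interneuron that expressed Fos could also be tagged. The paper stained c-Fos protein with the inhibitory marker GAD67 after SD and reported mostly excitatory neurons among the activated ones in every subregion. It also described background tag expression in mice injected with vehicle in place of the drug. All mice, in both groups, were kept awake for 5 h on day 0 and given 4-hydroxytamoxifen at ZT 2. On day 7 the SD group was kept awake for another 5 h while the NSD group was left undisturbed, and CA1 was dissected at ZT 5. Each library pooled the tissue of 5 mice, and there were n = 2 libraries per group. The sample labels name a cFos-Cre:Ribotag genotype and dorsal hippocampus as the tissue, where the methods describe the vectors and CA1. The labels also place NSD 1 with SD 1 in batch 1 and NSD 2 with SD 2 in batch 2.

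Interneurons are the minority of hippocampal neurons that release GABA, the main inhibitory transmitter, onto pyramidal neurons and onto each other. Gad1 and Gad2 encode the enzymes that make GABA from glutamate, and Slc32a1 encodes the transporter that loads it into synaptic vesicles. The other members divide interneurons into classes: Pvalb marks fast-spiking cells that inhibit the cell body, Sst and often Npy mark cells that inhibit dendrites, Vip marks cells that mainly inhibit other interneurons, and Cck marks a second class of basket cell. Lhx6 is a transcription factor of the Sst and Pvalb classes, and Reln, a secreted glycoprotein, is made by several classes and by Cajal-Retzius cells. Cck is also expressed by pyramidal neurons, which limits it as an interneuron marker.

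The 4 libraries held between 153511705 and 195910235 counts, of which the 10 genes took 0.110% to 0.129%, so counting error was small beside the difference between libraries. The excitatory genes Slc17a7, the vesicular glutamate transporter, Camk2a, a kinase of excitatory synapses, and Neurod6, a transcription factor of pyramidal neurons, were well detected in every library. Genes of glia were detected too, with 3182 to 3786 CPM (a count relative to its library's total after TMM scaling in edgeR) summed over 8 astrocyte genes. No library of whole CA1 was analysed here, so it was not measured whether interneuron RNA was enriched or depleted relative to the tissue. Values for RNA from bulk material cannot tell fewer cells of a type from less RNA per cell, and RNA carried along from untagged cells cannot be told apart from RNA of tagged interneurons.

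The cAMP response element (CRE) is the site of the activity-regulated factor CREB, and the Sst promoter is a classic example of a promoter that carries it. The windows below are the 150 bases before the RefSeq start of each member that had the CRE core TGACG on either strand within 250 bases upstream of the start. They come from RefSeq on build GRCm38.p6, the build of that sequence table and not of the counts, and read 5′ to 3′ along the gene, with TGACG or its reverse complement CGTCA in capitals. The positions are chr16:23890845-23890994 on the minus strand for Sst, chr9:121495695-121495844 on the minus strand for Cck, chr10:5639068-5639217 on the plus strand for Vip and chr2:22622177-22622326 on the plus strand for Gad2.
Sst: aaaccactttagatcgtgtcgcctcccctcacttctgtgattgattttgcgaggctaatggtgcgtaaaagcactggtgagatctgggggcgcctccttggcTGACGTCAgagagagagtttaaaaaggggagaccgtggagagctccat
Cck: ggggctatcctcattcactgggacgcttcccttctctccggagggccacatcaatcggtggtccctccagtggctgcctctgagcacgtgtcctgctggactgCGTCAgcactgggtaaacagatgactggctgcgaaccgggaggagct
Vip: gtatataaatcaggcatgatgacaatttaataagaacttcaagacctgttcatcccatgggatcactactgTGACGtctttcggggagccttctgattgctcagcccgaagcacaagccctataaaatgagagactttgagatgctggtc
Gad2: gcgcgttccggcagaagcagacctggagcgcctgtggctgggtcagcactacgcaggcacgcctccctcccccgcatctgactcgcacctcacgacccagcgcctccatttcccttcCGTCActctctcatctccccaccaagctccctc
In Sst the 2 orientations overlap and form the full palindrome TGACGTCA, 48 to 41 bases before the start. The full CRE was found in 1 of the 10 members and in 1.55% of 32851 promoter windows of 250 bases. The core lay 47 to 43 bases before the start in Cck, 79 to 75 in Vip and 33 to 29 in Gad2, which makes 4 of the 10 members, where 17.8% of all windows hold it. Each match describes the letters only, and no binding was measured.

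The 3 genes that define a GABAergic neuron were present at steady levels in all libraries, and none of them passed the test of SD against NSD. Gad1 lies at chr2:70383416-70432358 (GRCm39, plus strand). Its level was 332 CPM in NSD 1, 312 in NSD 2, 318 in SD 1 and 311 in SD 2. The groups overlapped, and the log2 fold change of SD against NSD was -0.033 ± 0.079 (SE, n = 2 libraries per group, 95% interval -0.21 to 0.15, adjusted p = 0.883 by edgeR's quasi-likelihood test). Gad2, at chr2:22512217-22583886 on the plus strand, had 228 and 225 CPM in NSD 1 and NSD 2, and 232 and 210 CPM in SD 1 and SD 2. SD held both the highest and the lowest library, and the log2 fold change was -0.039 ± 0.080 (SE, interval -0.22 to 0.14, adjusted p = 0.859, edgeR). Slc32a1, at chr2:158452687-158457668 on the plus strand, followed the same order, with 105 and 104 CPM in NSD and 107 and 96.9 CPM in SD. Its log2 fold change was -0.042 ± 0.072 (SE, interval -0.21 to 0.12, adjusted p = 0.831, edgeR). The antisense gene Gm14204 overlaps 220 exon bases of Slc32a1 and had 6.44% of its count, and the sources used here do not say whether reads were counted by strand. The intervals of all 3 genes lay within a fold change of 1.2 in either direction.

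**Figure D1:**
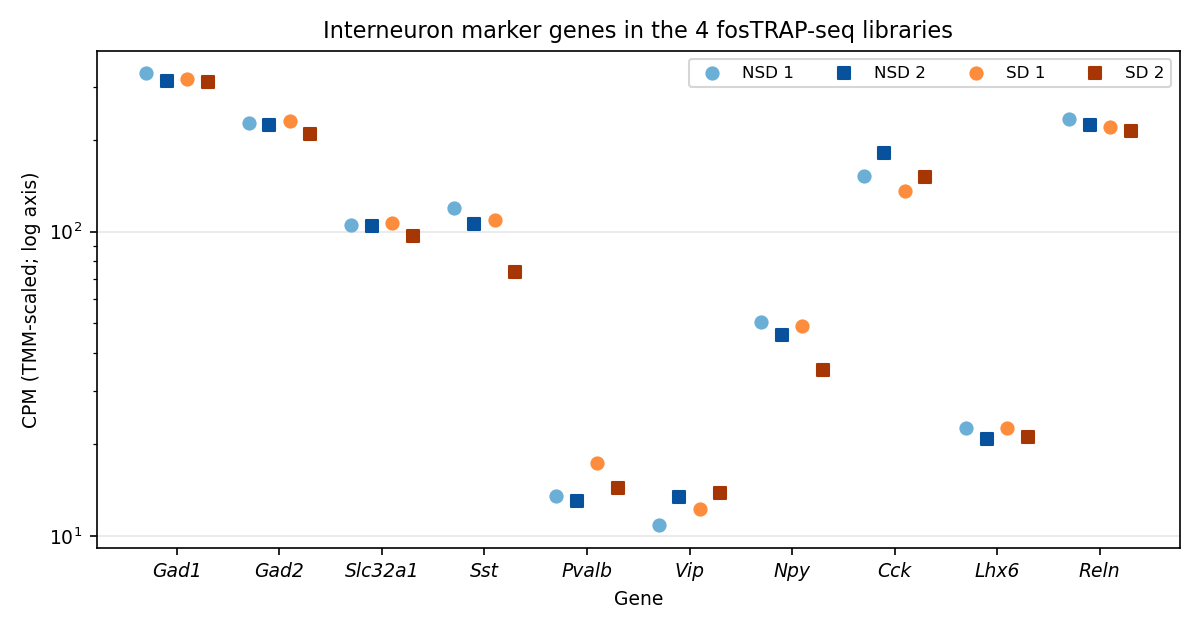
Level of each interneuron marker gene in CPM (log axis) in the 4 libraries, one point per library, circles for batch 1 and squares for batch 2. The 4 points of Gad1 lie between 311 and 332 CPM, and SD 2 is the lowest library for Sst (73.6 CPM) and for Npy (35.0 CPM).

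Sst and Npy, the peptide genes of dendrite-targeting interneurons, were lowest in SD 2 and had similar values in the other 3 libraries. Sst encodes somatostatin and lies at chr16:23708323-23709708 (minus strand). It had 120 and 106 CPM in NSD 1 and NSD 2, and 109 and 73.6 CPM in SD 1 and SD 2, which gave means of 113 ± 9.63 and 91.4 ± 25.2 CPM (s.d., n = 2). SD 1 fell between the NSD libraries, so the groups overlapped. The log2 fold change was -0.31 ± 0.16 (SE, interval -0.67 to 0.054, adjusted p = 0.347, edgeR). With the batch number as a block the estimate was -0.33 ± 0.078 (SE, interval -0.50 to -0.17, adjusted p = 0.0118, edgeR), and Sst was then called lower in SD, as it was by DESeq2 with the same block (adjusted p = 0.00994). Within batches the difference of SD from NSD was -0.14 in batch 1 and -0.53 in batch 2 on the log2 scale. The difference was carried by SD 2. Without that library, and with no block, the log2 fold change was -0.033 (adjusted p = 0.971, edgeR), and without SD 1 it was -0.62 (adjusted p = 1.71e-05).

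Npy, at chr6:49799690-49806487 (plus strand), encodes neuropeptide Y. Its level was 50.5 CPM in NSD 1, 45.8 in NSD 2, 48.9 in SD 1 and 35.0 in SD 2, so SD 1 again fell between the NSD libraries. The log2 fold change was -0.20 ± 0.14 (SE, interval -0.51 to 0.12, adjusted p = 0.509, edgeR), and the adjusted p was 0.0791 with the block. The within-batch differences were -0.045 and -0.39 on the log2 scale. Without SD 2 the estimate was 0.040 (adjusted p = 0.964, edgeR), and without SD 1 it was -0.46 (adjusted p = 0.00342). SD 2 was also the library with the lowest summed level of 10 endothelial and mural cell genes, at 58.7 CPM against 78.2 to 103 in the others, and of 5 choroid plexus genes, at 40.1 CPM against 61.1 to 132. Of the choroid plexus level in SD 2, Kl made up 34.9 CPM and Ttr 4.21 CPM. In SD 1 Kl was nearly the same, at 35.4 CPM, while Ttr was at 25.6 CPM. All genes of both lists had counts in every library. The part of these cell types in the Sst and Npy values was not tested.

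Pvalb, Cck and Vip differed more between libraries than the GABA genes did, each in its own pattern. Pvalb encodes the calcium buffer parvalbumin and lies at chr15:78075314-78090600 (minus strand). It had 13.6 and 13.0 CPM in NSD and 17.4 and 14.4 CPM in SD, so both SD libraries were above both NSD libraries. The log2 fold change was 0.26 ± 0.11 (SE, interval 0.0036 to 0.51, unadjusted p = 0.0475, adjusted p = 0.255, edgeR), and the within-batch differences were 0.36 and 0.14. Pvalb did not pass the adjusted threshold with the block either (adjusted p = 0.0751). Its log2 fold change was 0.11 without SD 1 and 0.41 without SD 2.

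Cck encodes cholecystokinin and lies at chr9:121318890-121324760 (minus strand). Its level was 152 CPM in NSD 1, 182 in NSD 2, 136 in SD 1 and 151 in SD 2, with both SD libraries below both NSD libraries, although NSD 1 and SD 2 differed by less than 1 CPM. The log2 fold change was -0.22 ± 0.10 (SE, interval -0.45 to 0.012, adjusted p = 0.289, edgeR). With the block the adjusted p was 0.0341, but the fold change stayed under 1.2 and Cck was not called. Its within-batch differences were alike, at -0.16 and -0.26. Without NSD 2 its log2 fold change was -0.082, and without SD 1 it was -0.14. The pyramidal reference genes had no common direction, with log2 fold changes of -0.35 ± 0.11 for Neurod6, -0.026 ± 0.12 for Camk2a and 0.077 ± 0.10 for Slc17a7 (SE, adjusted p = 0.112, 0.944 and 0.771, edgeR), and 8 of 19 pyramidal genes were above 0. With the block Neurod6 was called lower (log2 fold change -0.34 ± 0.062, SE, adjusted p = 0.0025, edgeR). How much of the Cck level came from pyramidal neurons was not tested. Vip, at chr10:5589218-5597617 (plus strand), encodes vasoactive intestinal peptide. It had 10.8 and 13.4 CPM in NSD and 12.3 and 13.8 CPM in SD, and the groups overlapped. Its log2 fold change was 0.10 ± 0.13 (SE, interval -0.18 to 0.39, adjusted p = 0.743, edgeR).

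Lhx6 and Reln were as steady as the GABA genes. Lhx6, at chr2:35971965-35995420 (minus strand), had 22.6 and 20.8 CPM in NSD and 22.7 and 21.1 CPM in SD. The libraries ordered by batch rather than by condition, and the log2 fold change was 0.011 ± 0.085 (SE, interval -0.18 to 0.20, adjusted p = 0.967, edgeR). Its sign turned to -0.011 with protein-coding genes only. Reln, at chr5:22089452-22549700 (minus strand), had 235 and 225 CPM in NSD and 220 and 215 CPM in SD. Both SD libraries were below both NSD libraries, but by little: the log2 fold change was -0.081 ± 0.074 (SE, interval -0.25 to 0.088, adjusted p = 0.638, edgeR). Without NSD 1 it was -0.019, and without SD 2 it was -0.045. For Lhx6 and Reln too, the interval lay within a fold change of 1.2. Of 7 genes of Cajal-Retzius cells, the other source of reelin, 5 were in the table and none was called by edgeR or at an unadjusted p under 0.05. All 5 had a log2 fold change above 0, with a median of 0.24 and a median SE of 0.40. The part of these cells in the Reln level was not tested. Their summed level was 40.7 to 45.0 CPM, of which Cacna2d2, a calcium channel subunit, made up 39.3 to 43.1 CPM. The other 4 genes were low, with Trp73, a transcription factor that defines these cells, the highest of them at 0.814 to 1.07 CPM.

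Across the 10 genes, edgeR called 0, where 3.1% of the 22338 genes tested were called. The rule for a call was a fold change over 1.2 with an adjusted p under 0.05. At an unadjusted p under 0.05 the count was 1 (Pvalb), against 19.1% of all genes, and DESeq2 without a block called 0, against 8.79%. With the batch block the count was 1 in edgeR (Sst, lower), against 11.5% of all genes in either direction and 8.47% lower, and 1 in DESeq2 (Sst), against 9.63%. Without SD 1 the count was 2 in edgeR (Sst and Npy), against 9.85%. Both libraries of one group lay beyond both of the other for 3 of the 10, Pvalb higher and Cck and Reln lower in SD, where this held for 49.5% of all genes, with 22% in the higher and 27.5% in the lower direction. The median log2 fold change of the 10 was -0.040, with 3 above 0 and 7 below, beside -0.016 over all genes tested and 0.018 over the 15551 protein-coding genes. The largest estimates in either direction were those of Sst and Pvalb, and their intervals reached from a fold change of 0.628 to 1.04 and from 1.00 to 1.43. For Sst, Pvalb, Vip, Npy and Cck the data therefore leave room for changes beyond a fold of 1.2.

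**Figure D2:**
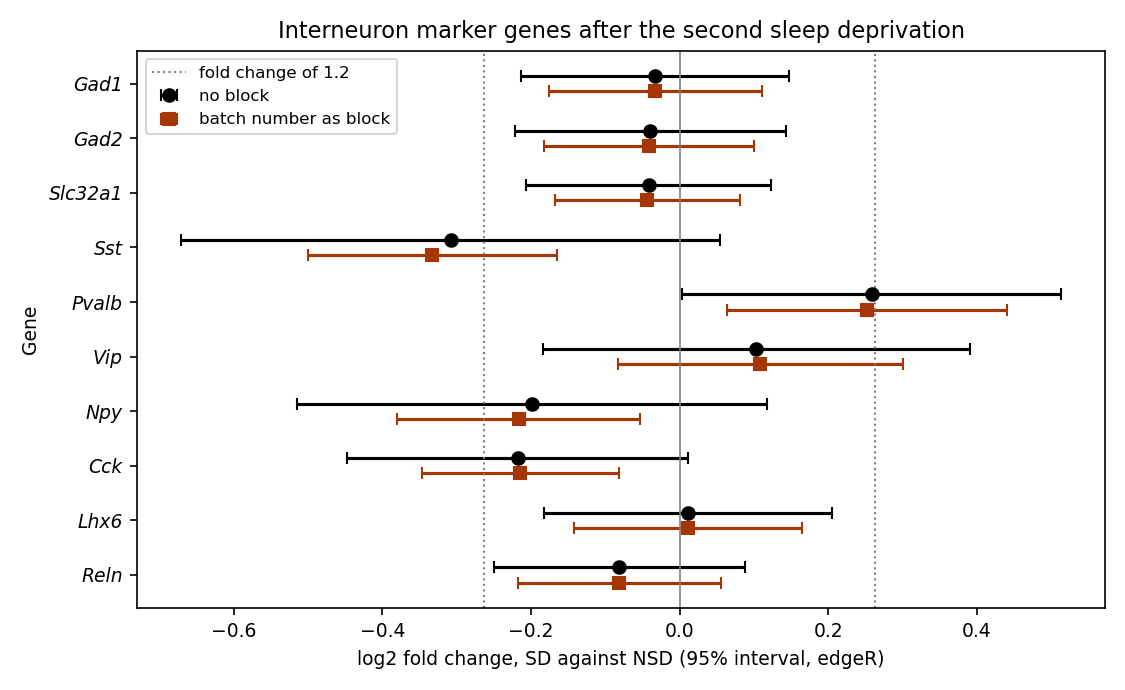
Log2 fold change of SD against NSD for each gene with its 95% interval, from edgeR without a block (circles) and with the batch number as a block (squares). Dotted lines mark a fold change of 1.2, and Sst with the block (-0.33) is the 1 called value.

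The spread over the 4 libraries was small for 5 of the members and larger for the other 5. The difference between the highest and the lowest library, on the log2 scale, was 0.092 for Gad1, 0.12 for Lhx6, 0.13 for Reln, 0.14 for Slc32a1 and 0.15 for Gad2. It was 0.35 for Vip, 0.42 for Pvalb, 0.42 for Cck, 0.53 for Npy and 0.71 for Sst. Among the 7960 protein-coding genes at or above the level of the lowest member, 8.73% had a smaller range than Gad1 and 25.8% a smaller range than Gad2, whereas 85.7% had a smaller range than Vip and 98.4% a smaller range than Sst. Without SD 2 the ranges were 0.17 for Sst, 0.14 for Npy, 0.042 for Gad2 and 0.036 for Slc32a1, and 48.9% of the genes then had a smaller range than Sst and 35.2% a smaller range than Npy. Without SD 1 35.3% of the genes had a smaller range than Pvalb, and without NSD 2 48.8% had a smaller range than Cck. Without NSD 1 56.1% had a smaller range than Vip and 47.9% a smaller range than Gad2. The split of the members therefore depends in part on single libraries. With 4 libraries this is a description without a test.

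**Figure D3:**
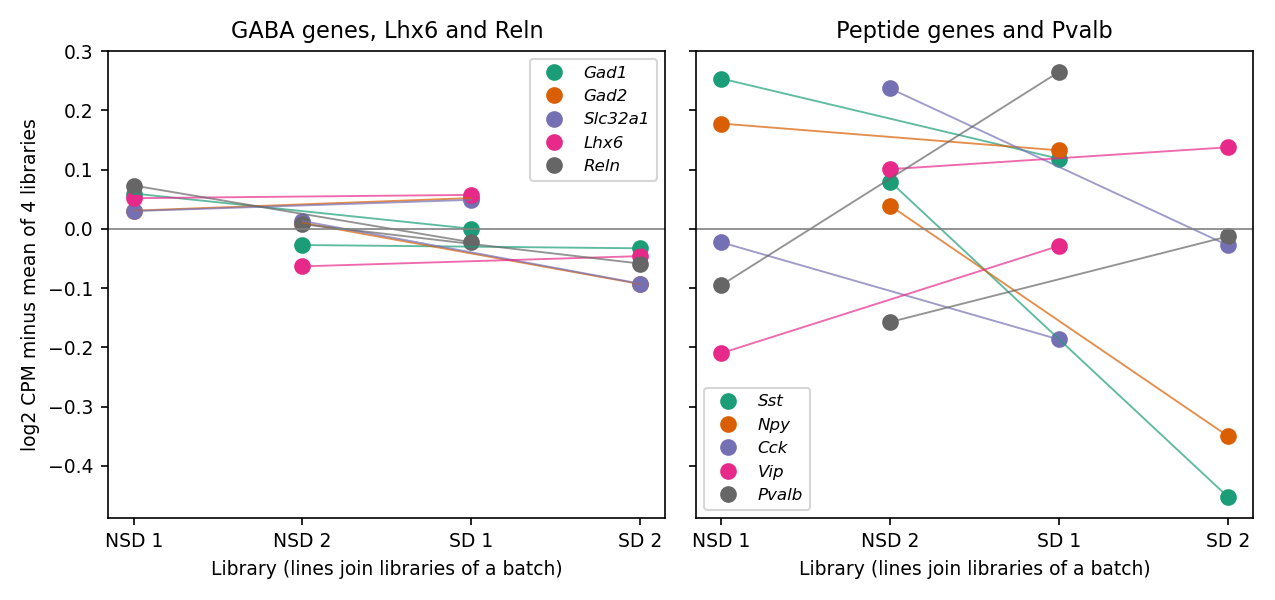
Log2 CPM of each gene minus its mean over the 4 libraries, with lines joining the NSD and SD library of a batch. Gad1, Gad2, Slc32a1, Lhx6 and Reln (left) stay within a range of 0.15, with the points of Gad2 nearly hidden behind Slc32a1, while Sst and Npy (right) drop in SD 2 and Pvalb is highest in SD 1.

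The CPM of single members was set against the summed CPM of Gad1, Gad2 and Slc32a1 in the same library. For Sst this ratio was 18.0% in NSD 1, 16.6% in NSD 2, 16.6% in SD 1 and 11.9% in SD 2. For Npy the ratio was 7.58%, 7.14%, 7.44% and 5.67% in the same order, so the low values of SD 2 remained by this reference. For Cck it was 22.8% and 28.4% in NSD 1 and NSD 2, and 20.65% and 24.5% in SD 1 and SD 2. By this ratio the groups overlapped for Cck, with SD 2 above NSD 1. For Pvalb the ratios were 2.04% and 2.02% in NSD and 2.65% and 2.32% in SD. For Lhx6 the ratio lay between 3.25% and 3.45% in all libraries. Whether the low Sst and Npy values of SD 2 came from fewer cells or less RNA per cell was not tested.

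Levels can be compared between genes only per length, and CPM per kilobase of merged exons was used. Sst was the highest member, at 142 ± 27.8 (s.d. over 4 libraries), followed by Cck at 71.8 ± 8.95, and these 2 genes were apart from their neighbours in every library. Slc32a1 (37.0), Gad2 (36.3), Npy (31.5) and Gad1 (30.6) came next, and neighbours in this order overlapped over libraries. Reln (9.43) was apart from the genes on either side, Lhx6 (4.40) and Pvalb (4.28) overlapped, and Vip (1.99) was the lowest in all libraries. For scale, Slc17a7 had 142, Neurod6 57.0 and Camk2a 454 CPM per kilobase. By this length Sst lay at the percentile 99.4 of the protein-coding genes, where Vip lay at 44.6. The order depends on the length used: per kilobase of coding sequence Cck (386) stood above Sst (294), Gad1 (175) rose to the third place, and Lhx6 (18.5) became the lowest. The place of Sst beside Slc17a7 also depends on it, since Slc17a7 stood at 437 per kilobase of coding sequence, and at 247 against 142 for Sst per kilobase of the longest transcript.

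**Figure D4:**
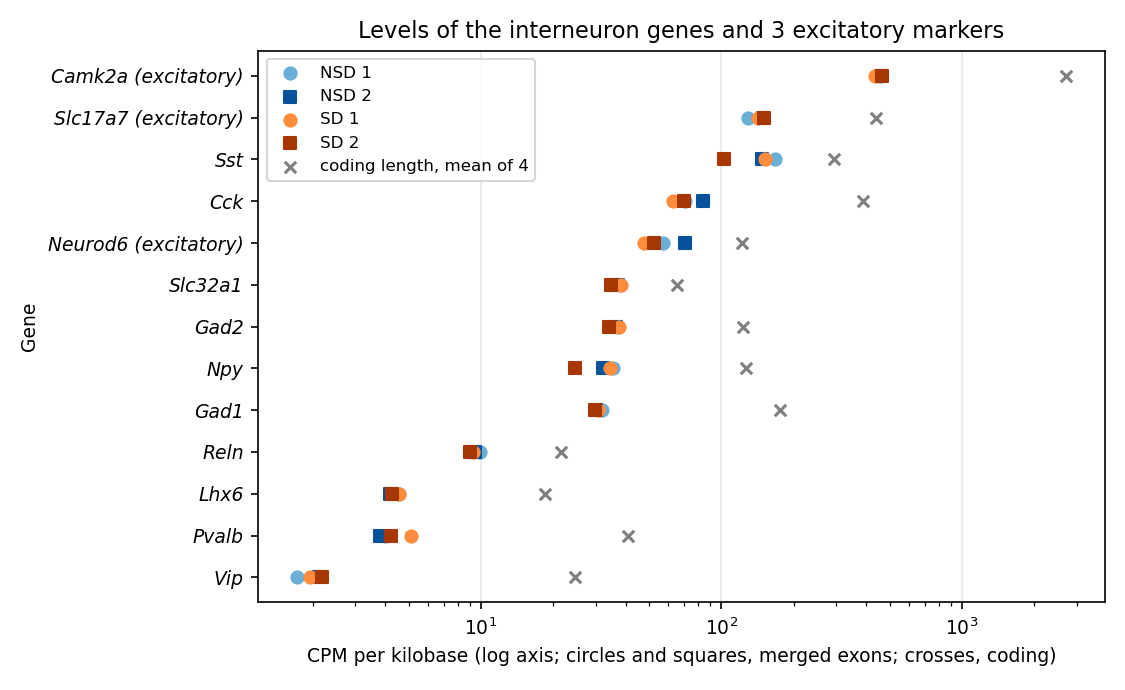
Level of the interneuron genes and of 3 excitatory reference genes in CPM per kilobase (log axis), with 1 point per library for merged exon length and a cross for the 4-library mean per kilobase of coding length. By merged exon length Sst and Slc17a7 both lie near 142 and Vip is the lowest gene, at 1.99, and by coding length Sst (294) lies below Slc17a7 (437).

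The summed level per kilobase of Gad1, Gad2 and Slc32a1 was compared with that of Slc17a7, Camk2a and Neurod6 in the same library, a ratio that no library scaling can move. It was 16.6% in NSD 1, 15.3% in NSD 2, 17.0% in SD 1 and 14.8% in SD 2. The SD libraries held the highest and the lowest value, and the means were 16.0% ± 0.976 in NSD and 15.9% ± 1.61 in SD (s.d., n = 2). The means of the ratio of GABAergic to pyramidal transcripts thus differed by less than the spread of the libraries within a group, and 2 libraries per group could not resolve a difference of the size of that spread. The ratio is one of transcripts and does not give a share of cells.

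Among 48 other genes known from interneurons, all of them tested, edgeR called 1 higher and 2 lower in SD, where 0.77% of all genes were called higher and 2.33% lower, and among the protein-coding genes 0.952% higher and 0.54% lower. Their median log2 fold change was -0.037, with 22 above 0 and 26 below, and 7 had an unadjusted p under 0.05, against 19.1% of all genes. Syt2, the fast calcium sensor of parvalbumin basket cell terminals, was the gene that rose. It had 139 and 169 CPM in NSD and 217 and 208 CPM in SD (log2 fold change 0.46 ± 0.099, SE, adjusted p = 0.0482, edgeR), and it missed the threshold without NSD 1 (adjusted p = 0.0852). Penk, the enkephalin precursor, fell from 17.7 and 19.0 CPM in NSD to 12.8 and 13.1 CPM in SD (-0.50 ± 0.089, SE, adjusted p = 0.0379, edgeR), and missed it without NSD 2 (adjusted p = 0.0562). Npy2r, a presynaptic receptor for neuropeptide Y, fell from 24.7 and 28.1 CPM to 15.8 and 16.5 CPM (-0.71 ± 0.090, SE, adjusted p = 0.0328, edgeR). Npy2r is expressed by pyramidal neurons as well. Syt2 also missed it with protein-coding genes only (adjusted p = 0.0664, edgeR). With no count filter the adjusted p was 0.0551 for Syt2, 0.0524 for Penk and 0.0463 for Npy2r, and with filterByExpr it was 0.0761, 0.0628 and 0.0628, so that all 3 calls were lost there. Elfn1, a synaptic protein, was not called by edgeR without the block (log2 fold change 0.38, adjusted p = 0.0704), but was called higher by edgeR with the block (adjusted p = 0.000695) and by DESeq2 without one (adjusted p = 0.00238).

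**Figure D5:**
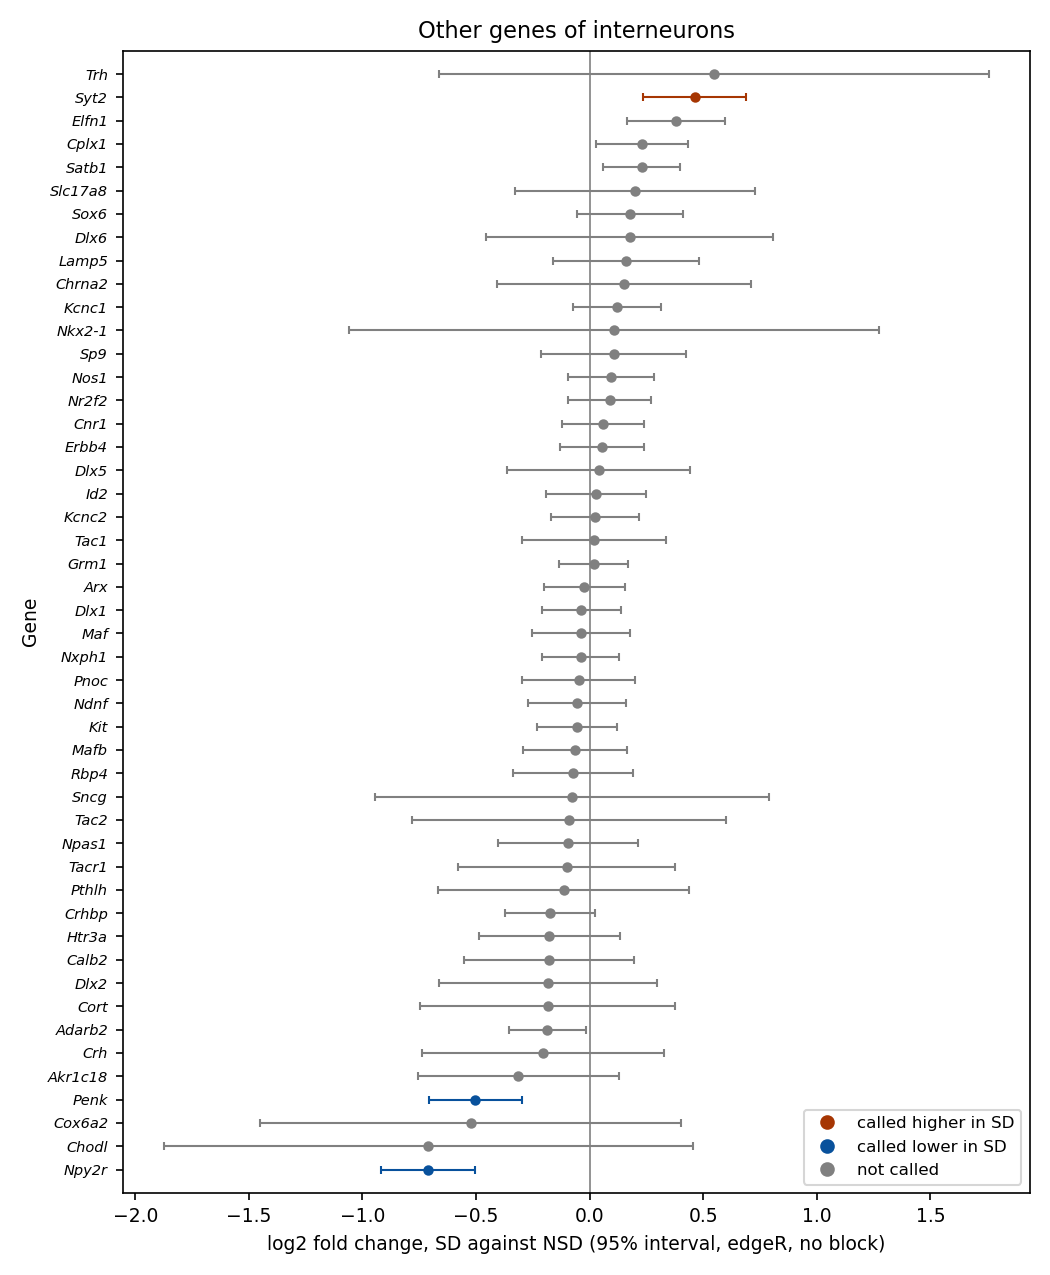
Log2 fold change of SD against NSD with its 95% interval for 48 other genes of interneurons (edgeR, no block), in order of size. Syt2 (0.46) was called higher, and Penk (-0.50) and Npy2r (-0.71) were called lower.

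The sets that follow stand beside 3.1% of all genes called by edgeR and 19.1% at an unadjusted p under 0.05, and with the block 2.99% called higher and 8.47% lower. Of 11 genes that take up or break down GABA and glutamine, edgeR called 0, with 2 at an unadjusted p under 0.05 and a median log2 fold change of 0.029. Of 19 genes of excitatory and CA1 pyramidal neurons it also called 0, with 6 at an unadjusted p under 0.05, and their median was -0.068. With the block 1 of the 19 was called higher and 5 lower. Of 14 genes of other hippocampal subfields edgeR called 0, with 4 at an unadjusted p under 0.05, and with the block 3 were called lower. Of 10 oligodendrocyte genes 0 were called, 1 had an unadjusted p under 0.05, and 1 was called higher with the block. The 8 astrocyte and 8 microglia genes had 0 calls by edgeR with or without the block, and 0 at an unadjusted p under 0.05. All 10 endothelial and mural cell genes had a negative log2 fold change, with a median of -0.72. Of these 0 were called by edgeR, 6 had an unadjusted p under 0.05, and 5 were called lower with the block. Of 4 choroid plexus genes tested 2 were called lower with the block, and 1 without it, where 2.33% of all genes were called lower. The 1 was Kl, a coreceptor for fibroblast growth factors, at 45.2 and 57.4 CPM in NSD and 35.4 and 34.9 CPM in SD (-0.54 ± 0.11, SE, adjusted p = 0.0405, edgeR). Ttr, of the same list, had another pattern, at 14.2 and 69.8 CPM in NSD and 25.6 and 4.21 CPM in SD, and was not called.

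Rbp4 and Nxph1 were among the 3 genes whose library profiles were most like the mean of Gad1, Gad2 and Slc32a1, out of 137 genes of the other lists. The root mean square difference of their centred log2 CPM from that mean over the 4 libraries was 0.0213 for Rbp4 and 0.0224 for Nxph1. Nxph1, a secreted ligand of neurexins, had 53.7, 53.4, 55.0 and 49.2 CPM, and Rbp4, a retinol carrier, had 7.90, 7.85, 7.75 and 7.22 CPM, both in the order NSD 1, NSD 2, SD 1, SD 2.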

How the data were processed

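fosTRAP-seq counts came from 4 libraries, 2 NSD and 2 SD. After trimming, the authors used STAR on mm39 (GRCm39) and Partek Flow's expectation-maximization counting with Ensembl release 110. They deposited estimated counts for each gene, not normalized. The kit kept strand, but whether counting used it is not given in the sources used here. Of the 28193 genes, 55.6% had a value that was not whole, and counts were rounded.

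The 22338 genes above 5 counts in all 4 libraries entered edgeR 4.0.16 under R 4.3.3 (TMM scaling, quasi-likelihood test, condition as the only term, Benjamini-Hochberg adjustment over all genes). Genes past a fold change of 1.2 with an adjusted p under 0.05 were called. Residual and prior degrees of freedom gave the 95% intervals. Single-library log2 values used a prior count of 2. The fit was tested on simulated data. Totals ran from 153511705 to 195910235, and each group had 2 libraries.

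The labels' batch number equals the replicate number and so pairs the libraries. Across genes, the correlation between deviations of paired libraries was 0.178. One alternative fit had this block. The others were DESeq2 1.42.0, its size factors in edgeR, no count filter, filterByExpr, protein-coding genes only, no fold change threshold, other gene lengths and each library left out. With a library left out, the lone library of a group was assumed to vary like the other group. DESeq2 with the block was added after the data had been seen.

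The members and lists were chosen with earlier results of these data known. Named were all members, up to 5 called genes of each other list, the 3 genes with library profiles nearest the GABA genes, of which 1 is not reported here, and Slc17a7, Camk2a and Neurod6. Elfn1 was named after its values were seen. Of the listed symbols 1 was matched through a synonym and 2 Cajal-Retzius genes were not used here. Gene lengths came from GENCODE exons clipped to the deposited gene spans.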

Additional observations from a re-analysis of the deposited data

How the results depend on the processing

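Of the 10 members 0 were called without a block, 1 with the replicate block pairing the batches (Sst), 1 by DESeq2 with that block, which was added after the data had been seen, and 0 to 2 with a library left out. The 2 were Sst and Npy without SD 1, where 9.85% of all genes were called. No other call on a member changed with the block. Of the 48 other interneuron genes 3 were called, where 3.1% of all genes were called. With no count filter 1 of the 48 was called, where 0.461% of all genes were called. With filterByExpr 0 were called, and that fit called 1 of 24323 genes in all. Signs of small log2 fold changes turned when a library was left out: Gad1 ranged from -0.075 to 0.041 (0.0014 without SD 2), Gad2 from -0.11 to 0.050 (0.00042 without NSD 1), Slc32a1 from -0.11 to 0.046, Vip from -0.014 to 0.27, Npy from -0.46 to 0.040 and Lhx6 from -0.045 to 0.099 (-0.039 without SD 1, and -0.011 with protein-coding genes only). The signs of Sst, Pvalb, Cck and Reln held under all 11 alternatives, but with a library left out their sizes moved over -0.62 to -0.033, 0.11 to 0.41, -0.31 to -0.082 and -0.11 to -0.019. The ratio of GABA genes to pyramidal genes was 12.6% in NSD and 12.4% in SD by CPM without length, and 6.61% and 6.51% against the whole pyramidal list, and with a library left out it was 15.3% to 16.6% in NSD and 14.8% to 17.0% in SD. The cause of these shifts was not tested.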
